A study of Mus musculus with 12 samples.

Results

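This comparison set the 3 arrays of Villin-Claudin-2 transgenic mice (TG) that drank water against the 3 arrays of wild-type littermates (WT) that drank water, 6 of the 12 arrays in the series. The arrays were chosen by their labels alone, and the other 6 came from mice of the same genotypes given 4% dextran sodium sulfate (DSS) for 10 days. All mice were males of 8 to 10 weeks, and the RNA was labelled as coming from colon epithelial cells. The transgene is named for villin, a brush border protein whose promoter is widely used to drive expression in gut epithelium. All 19935 genes that had at least 1 probe set with a single gene symbol were compared.

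Claudins are the membrane proteins that seal or open the space between neighbouring epithelial cells at the tight junction. Claudin-2 forms a channel that lets small cations and water pass between cells, and in the gut it is found mainly in leaky epithelium such as that of the crypts. The comparison on water asks how a colon with extra claudin-2 differs from its wild-type littermate before any injury.

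The deposited signals were taken to be on a log2 scale, which no source states, and all differences and folds rest on that. They are centred so that each probe set has a median of 0 across all 12 arrays, and a value therefore gives no absolute level. For that reason the presence of epithelial markers, or the absence of other cell types, cannot be read from these values, only how arrays differ. Each of the 6 water arrays had 22 to 91 of 28815 probe sets over 1 log2 unit away from the median, with the fewest on TG replicate 1 and the most on TG replicate 3. TG replicate 3 correlated with WT replicates 1 and 2 over all genes (Pearson r = 0.43 and 0.35) and stood at r = -0.19 and -0.04 with TG replicates 1 and 2. WT replicate 3 likewise stood at r = -0.13 and -0.43 with WT replicates 1 and 2. With TG replicates 1 and 2 its r was 0.22 and 0.12. These correlations describe arrays normalised together and have no test. Whether the arrays stand for separate animals is not given in the labels, and p-values here speak only to how much these samples vary, some of which could be technical.

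No gene differed between TG and WT on water at an adjusted p under 0.05 (limma with Benjamini-Hochberg adjustment, 0 of 19935, 0%). At an unadjusted p under 0.05, 423 genes differed (2.12%), of which 371 were lower in TG (1.86%) and 52 were higher (0.261%). Thus 87.7% of them were lower in TG, although over all genes 10902 were higher and 9033 lower, with a median difference of 0.01. Of the genes past this unadjusted threshold, 97 were lower by more than 0.5 log2 units and 6 were higher by as much. For 608 genes all 3 TG arrays lay below all 3 WT arrays (3.05%), and for 384 all 3 lay above (1.93%). Without TG replicate 2 the count at an unadjusted p under 0.05 was 179, and without TG replicate 3 it was 1020. The genes with the largest differences are therefore described by their values, and none of them passed the test over all genes.

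Cldn2, which the transgene is meant to raise, had WT values of -0.04, 0.02 and 0.11 for replicates 1 to 3 and TG values of 0.36, 0.18 and -0.02. TG replicates 1 and 2 lay above the WT arrays and TG replicate 3 lay among them, so the groups overlapped. The difference was 0.14 ± 0.12 (SE, 3 WT and 3 TG arrays), with a limma adjusted p of 1, and without TG replicate 1 it was 0.05. Whether the array's probes read the transgene's own transcript is not known here, so Cldn2 is a weak check of the genotype labels.

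Claudins as a family lay close to 0. Of 21 measured claudins 14 were higher and 7 lower in TG, with differences from -0.13 to 0.21 and a median of 0.04, and 0 had an unadjusted p under 0.05. Cldn7, a claudin of the basolateral membrane, stood at -0.10 ± 0.09. Cldn23 read 0.06, -0.06 and 0.13 in WT and 0.63, 0.31 and -0.18 in TG. As for Cldn2, TG replicates 1 and 2 were high and TG replicate 3 was low.

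Junction genes other than claudins had a median difference of -0.03, with 20 of 27 lower and 3 at an unadjusted p under 0.05 (11.1%), against 45.3% lower and 2.12% at that threshold of all genes. These 3 were Mpdz, a scaffold with many PDZ domains, at -0.32 ± 0.10, Jam2, an adhesion molecule best known from endothelium, at -0.39 ± 0.15, and Mylk, the myosin light chain kinase of smooth muscle and epithelium, at -0.35 ± 0.14. All 3 had a limma adjusted p of 1. Mpdz and Jam2 were lower on every TG array than on every WT array. For Mylk, TG replicate 3 at 0.04 lay above WT replicate 2 at -0.01.

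Rbp2, the cellular retinol-binding protein of absorptive enterocytes, had the smallest p-value and the largest negative difference. Its values were 0.98, 0.98 and 1.35 for WT and -0.19, -0.35 and -0.41 for TG. The WT arrays lay close together, the TG arrays lay close together, and the groups were far apart. TG was lower by a log2 difference of -1.42 ± 0.13 (2.68-fold, limma adjusted p = 0.1001), which missed the threshold. With single arrays left out the difference lay between -1.48 and -1.30 and the limma adjusted p between 0.108 and 0.863.

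Next in order of p-value came Kcnma1, Bckdhb, Scrn1 and Cdh19. Kcnma1, annotated as the pore subunit of the large-conductance calcium-activated potassium channel, read 0.38, -0.03 and 0.20 in WT and -0.78, -0.93 and -0.94 in TG. The difference was -1.06 ± 0.12 (2.09-fold lower, limma adjusted p = 0.302). Its 2 probe sets disagreed, since one stood at -0.25 ± 0.14 and the other at -1.87 ± 0.13. The second read 0.50, 0.09 and 0.21 in WT and -1.50, -1.52 and -1.79 in TG, and it was the only probe set to pass when each was tested on its own (limma adjusted p = 0.0265 over 21780 probe sets). The annotation ties the 2 probe sets to Kcnma1 through accessions that do not overlap, so whether the second one measures this gene is open to doubt.

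Bckdhb, a subunit of the branched-chain keto acid dehydrogenase that breaks down leucine, isoleucine and valine, read 0.54, 0.67 and 0.85 in WT and -0.23, 0.01 and -0.08 in TG. Its difference was -0.79 ± 0.11 (limma adjusted p = 0.903). Scrn1, secernin, stood at -0.59 ± 0.11, and Cdh19, a cadherin of Schwann cells and glia, at -0.91 ± 0.16 (limma adjusted p = 1 for both). For Bckdhb, Scrn1 and Cdh19 alike, every TG array lay below every WT array.

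Gsta4, a glutathione transferase that clears products of lipid peroxidation, read -0.27, 0.63 and 0.27 in WT and -1.09, -0.57 and -1.55 in TG. The difference was -1.28 ± 0.29 (2.42-fold lower, limma adjusted p = 1), and the WT arrays spread more widely than for Rbp2. Several others of the 12 largest negative differences are known from cells outside the epithelium. Lum, a keratan sulfate proteoglycan of connective tissue, stood at -0.88 ± 0.18, and Aspn, a related matrix protein, at -0.75 ± 0.25. Scn7a, a sodium-sensing channel of glia and neurons, stood at -0.79 ± 0.17 and Epha7, an ephrin receptor, at -0.82 ± 0.24.

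Cd36, a receptor that takes up fatty acids, and Fabp7, the brain type of fatty acid-binding protein found in glia, leaned on 1 array. Cd36 read -0.04, 1.15 and 0.04 in WT and -0.43, -0.53 and -0.29 in TG, and Fabp7 read 0.08, 1.23 and -0.08 in WT and -0.24, -0.53 and -0.30 in TG. In both WT replicate 2 stood more than 1 log2 unit above the other WT arrays. The differences were -0.80 ± 0.29 and -0.77 ± 0.32, and without WT replicate 2 they were -0.42 and -0.36.

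Among genes with descriptive symbols, an unadjusted p under 0.05 and groups that did not overlap, the 12 largest positive differences ran from 0.34 to 0.72. Svs2 and Svs4, secretory proteins of the seminal vesicle, stood at 0.72 ± 0.22 and 0.35 ± 0.11 (limma adjusted p = 1 for both). Svs2 read -0.03, -0.01 and -0.39 in WT and 0.68, 0.98 and 0.09 in TG, and Svs4 read 0.03, -0.03 and -0.11 in WT and 0.31, 0.49 and 0.12 in TG. TG replicates 1 and 2 were the highest for both genes, while TG replicate 3 lay just above the WT arrays.

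Other genes of the male accessory glands form a list put together after these values had been seen. Over its 11 measured genes, Svs2 and Svs4 included, the median per array was between -0.11 and 0.00 in WT and was 0.03, 0.56 and 0.09 in TG replicates 1 to 3. Pbsn, the prostate protein probasin, read 0.01, 1.34 and -0.05 in WT and -0.01, 4.50 and -0.02 in TG. Tgm4, the prostate transglutaminase, read -0.24, 1.95 and -0.31 in WT and -0.13, 4.23 and 0.13 in TG. Both genes were therefore high on TG replicate 2 and less so on WT replicate 2. Svs5, of the seminal vesicle, read 0.01, -0.14 and -0.07 in WT and 0.77, 1.66 and -0.01 in TG, so Svs2, Svs4 and Svs5 were also high on TG replicate 1. Svs1, Svs3a, Svs3b and Svs6 lay between -0.10 and 0.10 on that array. Their part in the other differences was not tested.

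Lta4h, the hydrolase that makes a leukotriene that attracts neutrophils, read -0.32, -0.09 and 0.28 in WT and 0.32, 0.53 and 0.31 in TG (difference 0.43 ± 0.16). Ndufa12, a subunit of the first respiratory chain complex, stood at 0.40 ± 0.13, and Clca3a2, of the calcium-activated chloride channel regulators, at 0.38 ± 0.12. The remaining positive differences belonged to Sfi1, a centrosome protein, at 0.67 ± 0.27, Serpina1c, a protease inhibitor, at 0.51 ± 0.21, Usp17ld, a deubiquitinating enzyme, at 0.46 ± 0.10 and the solute carrier Slc35g2 at 0.45 ± 0.14. Mns1, a protein of cilia and flagella, stood at 0.35 ± 0.11, the cytochrome P450 gene Cyp3a25 at 0.34 ± 0.13 and Padi4, which converts arginine to citrulline in proteins, at 0.34 ± 0.12. Serpina1c and Usp17ld belong to families of near-identical copies, so their probes may read more than 1 gene. Sfi1 drew on WT replicate 2 at -0.94, beside -0.08 and 0.08 on the other WT arrays, and its difference was 0.35 without that array.

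**Figure D1:**
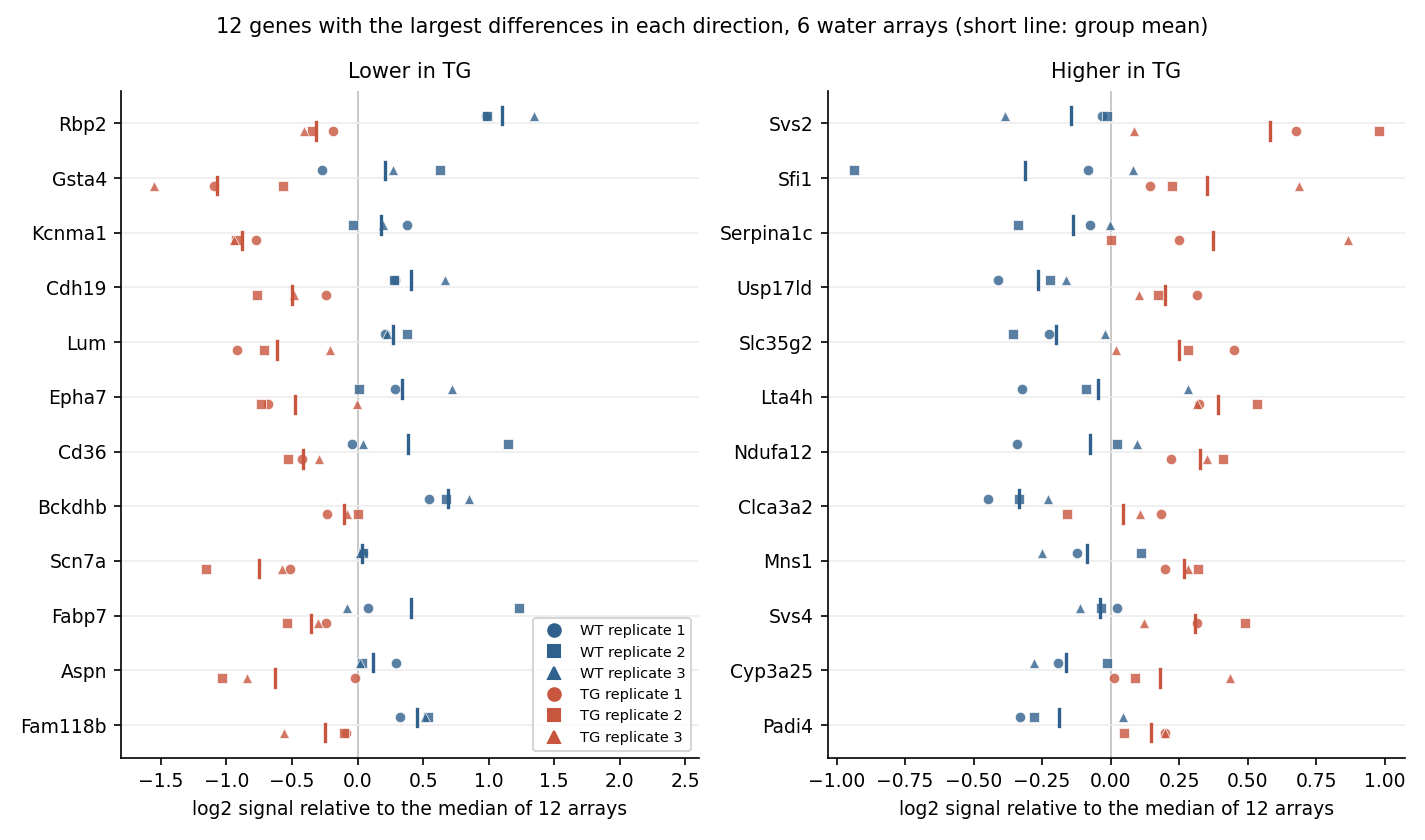
The 12 genes with the largest negative (left) and positive (right) differences among genes with descriptive symbols, an unadjusted p under 0.05 and groups that do not overlap. Each point is 1 water array, in log2 units relative to the median of 12 arrays, with WT blue and TG red, and the short line is the group mean. Rbp2 shows the widest gap between groups, while Cd36 and Fabp7 each have 1 high WT array.

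Markers of several cell types outside the epithelium were among the 371 genes lower in TG at an unadjusted p under 0.05. The gene lists for enteric neurons and glia, smooth muscle, fibroblasts, macrophages and adipocytes had 123 measured members, of which 35 were lower at that threshold and 0 were higher, against 1.86% lower and 0.261% higher of all genes. These 5 are the lists of cell types outside the epithelium that held any gene at that threshold, so the pooled count partly follows from their choice. The lists of endothelium, T and NK, B and plasma, neutrophil and mast cells held 0 and are not in it. In RNA from bulk samples, fewer cells of a type and less RNA per cell cannot be told apart. None of these genes passed over all genes. The lists were chosen with earlier results of these data known, so the counts below, also beside the shares of all genes, are descriptions. The part of these cell types in the differences of other genes was not tested.

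Enteric neurons and glia form the nerve plexus that controls movement and secretion of the gut. Of 29 measured genes of this list 24 were lower in TG, 13 of them at an unadjusted p under 0.05 (44.8%, against 2.12% of all genes), and for 12 the groups did not overlap. The median difference was -0.23, beside 0.01 for all genes. The median of the list on each array was 0.08, 0.19 and -0.01 in WT and -0.11, -0.19 and -0.06 in TG, so the groups did not overlap there either. Without TG replicate 2 the count at an unadjusted p under 0.05 was 8.

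Gal, the neuropeptide galanin, read 0.08, -0.08 and 0.18 in WT and -0.52, -0.52 and -0.40 in TG, a difference of -0.54 ± 0.10 (limma adjusted p = 1). Vip, vasoactive intestinal peptide, which relaxes gut muscle and drives secretion, read 0.23, 0.34 and -0.17 in WT and -0.24, -0.66 and -0.49 in TG, a difference of -0.60 ± 0.16. Every TG array was below every WT array for both peptides. Nos1, the neuronal nitric oxide synthase, stood at -0.40 ± 0.13 and Chrm2, a muscarinic acetylcholine receptor that smooth muscle also carries, at -0.67 ± 0.22. These 2 and the next genes except Prph were named after their values had been seen.

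Structural and synaptic genes of neurons lay in the same direction. Prph, the intermediate filament peripherin, read 0.09, 0.37 and 0.05 in WT and -0.09, -0.50 and -0.43 in TG (-0.51 ± 0.14). Syt1 and Snap25, of the machinery that releases transmitter, stood at -0.43 ± 0.12 and -0.40 ± 0.12. Ret, the receptor that guides neural crest cells into the gut, stood at -0.37 ± 0.13, and Ncam1 and Uchl1 stood at -0.37 ± 0.13 and -0.38 ± 0.13. The glial genes of the list gave smaller values, since S100b stood at -0.08 ± 0.09, Sox10 at -0.02 ± 0.15 and Gfap at 0.07 ± 0.11.

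**Figure D2:**
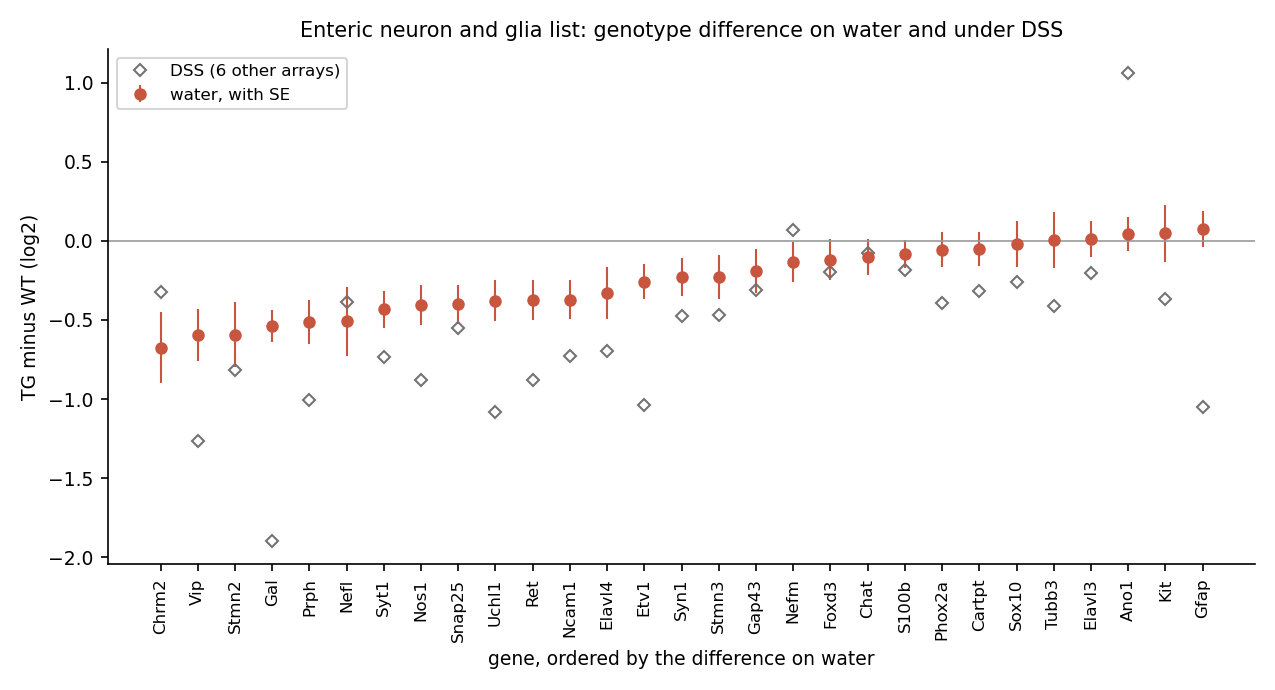
Genotype difference (TG minus WT, log2) of the 29 measured genes of the enteric neuron and glia list, ordered by the value on water. Filled points are the water arrays with their SE and open diamonds are the DSS arrays. On water 24 of the 29 lie below 0, and under DSS 27.

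Smooth muscle genes had the lowest median of all lists, -0.43 over 27 genes. In this list 26 genes were lower, 11 of them at an unadjusted p under 0.05 (40.7%), and for 9 the groups did not overlap. On single arrays the list median was 0.20, 0.03 and 0.25 in WT and -0.17, -0.70 and 0.04 in TG. TG replicate 2 stood far below the rest and TG replicate 3 lay among the WT arrays. The count at an unadjusted p under 0.05 was 3 without TG replicate 2, 22 without TG replicate 3, 4 without WT replicate 1 and 2 without WT replicate 3.

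Synm, an intermediate filament protein of muscle, read 0.33, 0.31 and 0.49 in WT and -0.20, -0.70 and 0.15 in TG, a difference of -0.63 ± 0.20. Tpm2, a muscle tropomyosin, stood at -0.50 ± 0.17, and Lmod1, which nucleates actin filaments in smooth muscle, at -0.51 ± 0.17 (limma adjusted p = 1 for all 3). Myh11, the smooth muscle myosin heavy chain, named after its values had been seen, read 0.23, 0.06 and 0.22 in WT and -0.36, -0.76 and 0.02 in TG. In Synm and Myh11 the TG arrays kept the same order, with replicate 2 lowest and replicate 3 highest.

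Fibroblast genes had a median difference of -0.23, with 24 of 25 lower and 5 at an unadjusted p under 0.05. Lum read 0.21, 0.37 and 0.22 in WT and -0.92, -0.71 and -0.21 in TG. Postn, the matrix protein periostin, stood at -0.55 ± 0.12 and Dpt, dermatopontin, at -0.53 ± 0.18 (limma adjusted p = 1 for both). The list median was 0.13, 0.01 and 0.01 in WT and -0.45, -0.32 and 0.19 in TG, so TG replicate 3 stood above all WT arrays. Without TG replicate 3, 18 of the 25 genes had an unadjusted p under 0.05, and the count was 3 without WT replicate 1 and 2 without TG replicate 1 or TG replicate 2.

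Macrophage and monocyte genes had a median difference of -0.19, with 19 of 22 lower and 4 at an unadjusted p under 0.05. Adgre1, which encodes the macrophage antigen recognised by the antibody F4/80, read 0.48, 0.08 and 0.04 in WT and -0.54, -0.39 and -0.18 in TG, a difference of -0.57 ± 0.15. Mrc1, the mannose receptor, stood at -0.49 ± 0.13 and Ms4a7 at -0.40 ± 0.11 (limma adjusted p = 1 for all 3). The list median was 0.14, 0.01 and -0.07 in WT and -0.31, -0.32 and 0.12 in TG, which again set TG replicate 3 apart from the other TG arrays. The median difference was -0.08 without TG replicate 2 and -0.33 without TG replicate 3.

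The adipocyte list differed from the others in resting on WT replicate 2. Its median difference over 20 genes was -0.21, and 0.04 without WT replicate 2. The list median was 0.61 on that array and between -0.09 and 0.10 on the other 5. Ucp1, the uncoupling protein of brown fat, read 1.96 there, beside -0.31 to 0.23 on the other 5, and was named after its values had been seen. So was Car3, a carbonic anhydrase of fat and muscle, which read -1.89, 2.64 and 0.05 in WT and -1.70, -0.10 and 0.25 in TG, and so was low on replicate 1 of both groups. The 2 members at an unadjusted p under 0.05 were lower in TG without that pattern, namely Aoc3, an amine oxidase of fat and smooth muscle, at -0.65 ± 0.18 and Plin4, a lipid droplet protein, at -0.46 ± 0.16.

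MHC class II genes, which present antigen and are carried mainly by immune cells, had a median difference of -0.37 over 10 genes, but 0 had an unadjusted p under 0.05. H2-Ab1 read 1.24, -0.29 and -0.08 in WT and -0.50, -1.07 and 0.18 in TG, so WT replicate 1 alone was high. H2-Eb1 stood at -0.46 ± 0.34 and H2-Eb2 at -0.44 ± 0.32. Without WT replicate 1 the list median was -0.11 and without TG replicate 2 it was -0.05.

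Not all lists of other cell types lay below 0. Endothelium (22 genes, median 0.01), T and NK cells (22, 0.02), neutrophils (20, 0.03) and mast cells (12, 0.01) had 0 genes at an unadjusted p under 0.05. B and plasma cell genes had a median of -0.04 and none at that threshold.

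**Figure D3:**
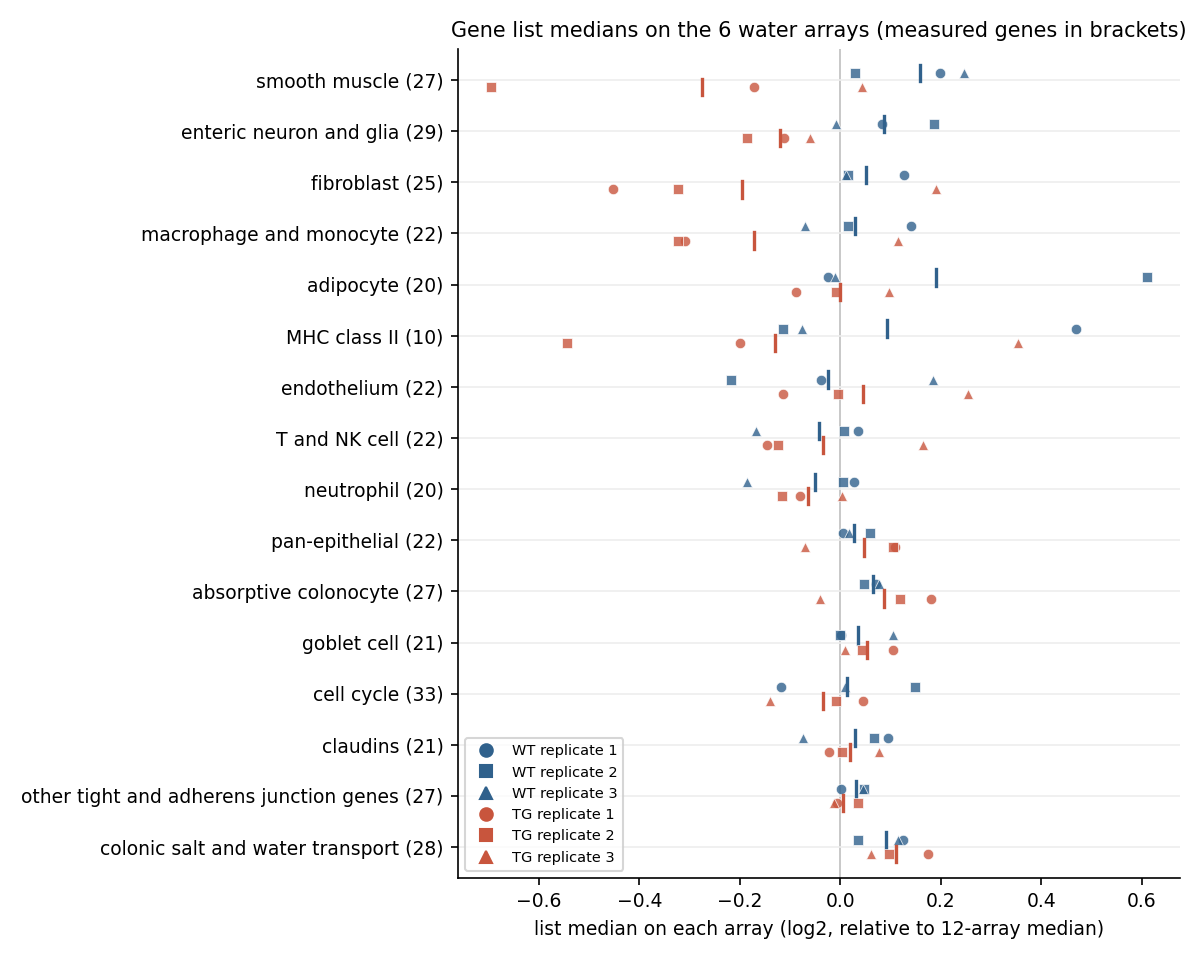
Median of each gene list on each of the 6 water arrays, in log2 units relative to the median of 12 arrays, with the number of measured genes in brackets, WT blue, TG red and the group mean as a short line. Smooth muscle, fibroblast and macrophage lists are low on TG replicates 1 and 2 and near WT on TG replicate 3, and the adipocyte list is high on WT replicate 2.

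**Figure D4:**
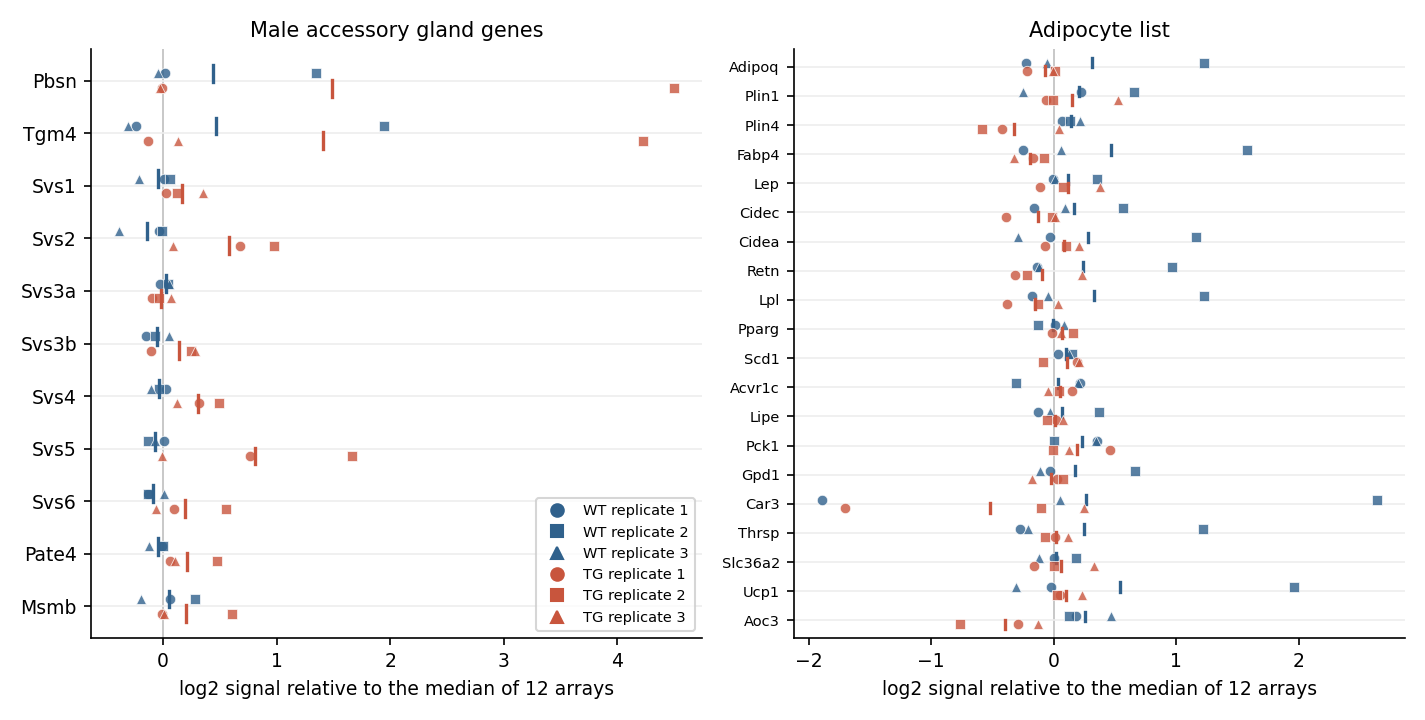
Values of 11 male accessory gland genes (left) and 20 adipocyte genes (right) on the 6 water arrays, in log2 units relative to the median of 12 arrays. TG replicate 2 stands out for Pbsn (4.50) and Tgm4 (4.23) and WT replicate 2 for Car3 (2.64) and Ucp1 (1.96).

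Epithelial lists stood near 0. The pan-epithelial list had a median difference of 0.01 over 22 genes and array medians from 0.00 to 0.06 in WT and from -0.07 to 0.11 in TG, and the absorptive colonocyte list had 0.03 over 27. Neither held a gene at an unadjusted p under 0.05. Goblet cell genes had 0.05 over 21, with 18 higher and 0 at that threshold. The list of colonic salt and water transport had -0.01 over 28 and 0 at that threshold, with Scnn1b, a subunit of the epithelial sodium channel, at -0.22 ± 0.12, Car4, a carbonic anhydrase of surface cells, at 0.42 ± 0.24 and the potassium channel gene Kcnq1 at 0.14 ± 0.08. Kcnq1 was higher on every TG array than on every WT array.

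Of the enteroendocrine list 2 of 23 genes were lower at an unadjusted p under 0.05, and the median was 0.05. Both process peptide hormones and are used by neurons as well, namely Cpe, a carboxypeptidase, at -0.46 ± 0.15 and Pcsk1, a prohormone convertase, at -0.28 ± 0.10. Of the tuft cell list 1 of 18 was lower, Fyb, an adaptor also used in T cells, at -0.41 ± 0.12. The small intestinal enterocyte list had Rbp2 and Enpep lower and Cyp3a25 higher among 34 genes, with a median of 0.02. Enpep, an aminopeptidase also found on pericytes, read 0.14, -0.15 and 0.15 in WT and -0.58, -0.46 and -0.35 in TG (-0.51 ± 0.12). The wider retinoid list of carriers and enzymes had a median of 0.00 over 30 genes, and beside Rbp2 only the retinoic acid receptor gene Rarb reached an unadjusted p under 0.05, at -0.25 ± 0.10.

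Growth, survival and proliferation lists gave few genes. EGF receptor family (14 genes, median 0.02), PI3K and AKT signalling (20, -0.02), BCL2 family (16, 0.02) and crypt base stem cell and Wnt target genes (24, 0.02) had 0 at an unadjusted p under 0.05. Lgr5, the receptor of crypt base stem cells, stood at -0.21 ± 0.14 and Nkd1, a Wnt feedback inhibitor, at -0.26 ± 0.15. Of 33 cell cycle genes 1 was lower, Aurkb, the mitotic kinase Aurora B, which read 0.05, 0.25 and 0.10 in WT and -0.13, -0.01 and -0.14 in TG (-0.22 ± 0.09). The list's median was -0.07.

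Inflammatory lists were likewise close to 0 at rest. Over 41 measured cytokines and chemokines the median was -0.01, and 1 reached an unadjusted p under 0.05, Ccl8, which draws monocytes, at -0.25 ± 0.10. Antimicrobial and acute phase genes had 0.01 over 26 with 1 lower, Pla2g5, a secreted phospholipase, at -0.47, and the immune regulation and tolerance list had -0.05 over 34 with 0. The interferon response list had -0.08, with 24 of 29 lower, and 1 at an unadjusted p under 0.05. This was the interferon-induced gene Ifit3, with 0.19, -0.17 and 0.07 for the WT arrays and -0.89, -1.04 and 0.00 for the TG arrays, so that TG replicate 3 lay among the WT arrays. Of the circadian clock list 1 of 17 was lower, Bhlhe41, a transcriptional repressor, at -0.50 ± 0.16.

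Chromosome 9 held a larger share of the small p-values than of the genes. The positions are those of the RefSeq annotation of GRCm38.p6, to which genes were matched by identifier, and the pattern was noticed in these values. Chromosome 9 carries 5.86% of the measured genes, yet 4 of the 10 genes with the smallest p-values and 6 of the 20. At an unadjusted p under 0.01, 89 genes differed (0.446%), and 15 of them were on chromosome 9. All 15 were lower in TG, as were 86 of the 89 over all chromosomes. These 15 made 1.29% of the genes of chromosome 9, and on the other chromosomes the share was at most 0.738%. At an unadjusted p under 0.05 chromosome 9 did not lead, with 3.34% against 3.54% on chromosome 13 and 2.12% over all chromosomes. Of the 15, 14 were in none of the gene lists, the exception being Rbp2, and of the 89 over all chromosomes 77 were in none. Apart from Rbp2, Gsta4, Bckdhb and Fam118b, these genes are named after their values had been seen.

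The 15 lie along the whole chromosome and their roles differ. From one end they were Casp12, an inflammatory caspase, Tirap, an adaptor of Toll-like receptors, Foxred1, an assembly factor of the first respiratory chain complex, Srpr, the receptor subunit for the signal recognition particle, and Fam118b. There followed Htr3a, a serotonin receptor, Chrna3, a nicotinic acetylcholine receptor of autonomic neurons, Myo5a, a myosin motor, Hmgcll1, and Gsta4. Toward the other end lay Bckdhb, Me1, the malic enzyme, Plod2, which hydroxylates collagen lysines, Rbp2 and Hhatl. Myo5a read 0.11, 0.06 and 0.16 in WT and -0.60, -0.74 and -0.29 in TG (-0.65 ± 0.13). Htr3a and Chrna3 stood at -0.68 ± 0.17 and -0.59 ± 0.16, and like Vip and Prph they were lowest on TG replicate 2.

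Tirap, Foxred1, Srpr and Fam118b are 4 neighbours with no other measured gene between them. Foxred1 read 0.07, 0.27 and 0.45 in WT and -0.27, -0.30 and -0.30 in TG, a difference of -0.55 ± 0.11. Srpr read 0.03, 0.00 and 0.16 in WT and -0.33, -0.60 and -0.60 in TG, a difference of -0.57 ± 0.11. In both genes TG replicate 3 was as low as TG replicate 2, unlike in the smooth muscle and fibroblast lists. Tirap stood at -0.48 ± 0.13 and Fam118b at -0.71 ± 0.14, again with no overlap (limma adjusted p = 1 for all 4). Dcps, the next measured gene beyond Tirap, stood at 0.28 ± 0.13 with overlapping groups, and the groups also overlapped for the next measured gene beyond Fam118b.

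Foxred1 and Srpr start head to head, and the RefSeq windows from 250 bases before to 50 bases after each start are shown because the 2 genes share this stretch of DNA. The starts are 148 bases apart on opposite strands and the windows have 247 bases in common, which are in capitals. They lie at chr9:35211006-35211305 on the minus strand for Foxred1 and chr9:35210953-35211252 on the plus strand for Srpr, on GRCm38.p6.
Foxred1: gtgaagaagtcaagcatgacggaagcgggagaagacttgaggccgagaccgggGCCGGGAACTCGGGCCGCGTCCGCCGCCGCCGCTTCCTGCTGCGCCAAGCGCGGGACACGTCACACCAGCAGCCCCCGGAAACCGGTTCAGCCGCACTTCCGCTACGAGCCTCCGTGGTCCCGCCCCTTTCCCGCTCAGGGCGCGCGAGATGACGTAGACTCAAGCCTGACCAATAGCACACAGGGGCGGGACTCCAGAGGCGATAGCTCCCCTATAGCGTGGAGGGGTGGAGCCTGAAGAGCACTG
Srpr: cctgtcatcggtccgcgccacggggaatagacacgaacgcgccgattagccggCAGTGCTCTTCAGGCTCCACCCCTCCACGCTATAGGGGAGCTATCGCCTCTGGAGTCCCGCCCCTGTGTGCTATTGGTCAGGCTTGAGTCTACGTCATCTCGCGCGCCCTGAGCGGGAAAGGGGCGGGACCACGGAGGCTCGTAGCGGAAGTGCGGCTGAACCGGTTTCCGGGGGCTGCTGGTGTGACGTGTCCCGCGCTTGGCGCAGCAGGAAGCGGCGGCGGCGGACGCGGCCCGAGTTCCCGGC

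The window of Rbp2 is shown as that of the gene with the largest negative difference. It lies at chr9:98490287-98490586 on the plus strand of GRCm38.p6, with the matches to TATAAA on either strand in capitals. Its 2 matches are 1 on each strand, and the one on the gene's own strand begins 15 bases before the annotated start. Of 32851 such windows 13.6% hold TATAAA on either strand, and those of Foxred1 and Srpr hold none. These matches describe the letters only.
Rbp2: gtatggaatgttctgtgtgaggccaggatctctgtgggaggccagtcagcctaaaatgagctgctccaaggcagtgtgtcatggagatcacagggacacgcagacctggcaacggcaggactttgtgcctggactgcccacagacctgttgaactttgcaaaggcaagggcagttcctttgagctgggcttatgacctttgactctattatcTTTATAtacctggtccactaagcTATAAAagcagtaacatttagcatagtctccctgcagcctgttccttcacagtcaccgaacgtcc

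**Figure D5:**
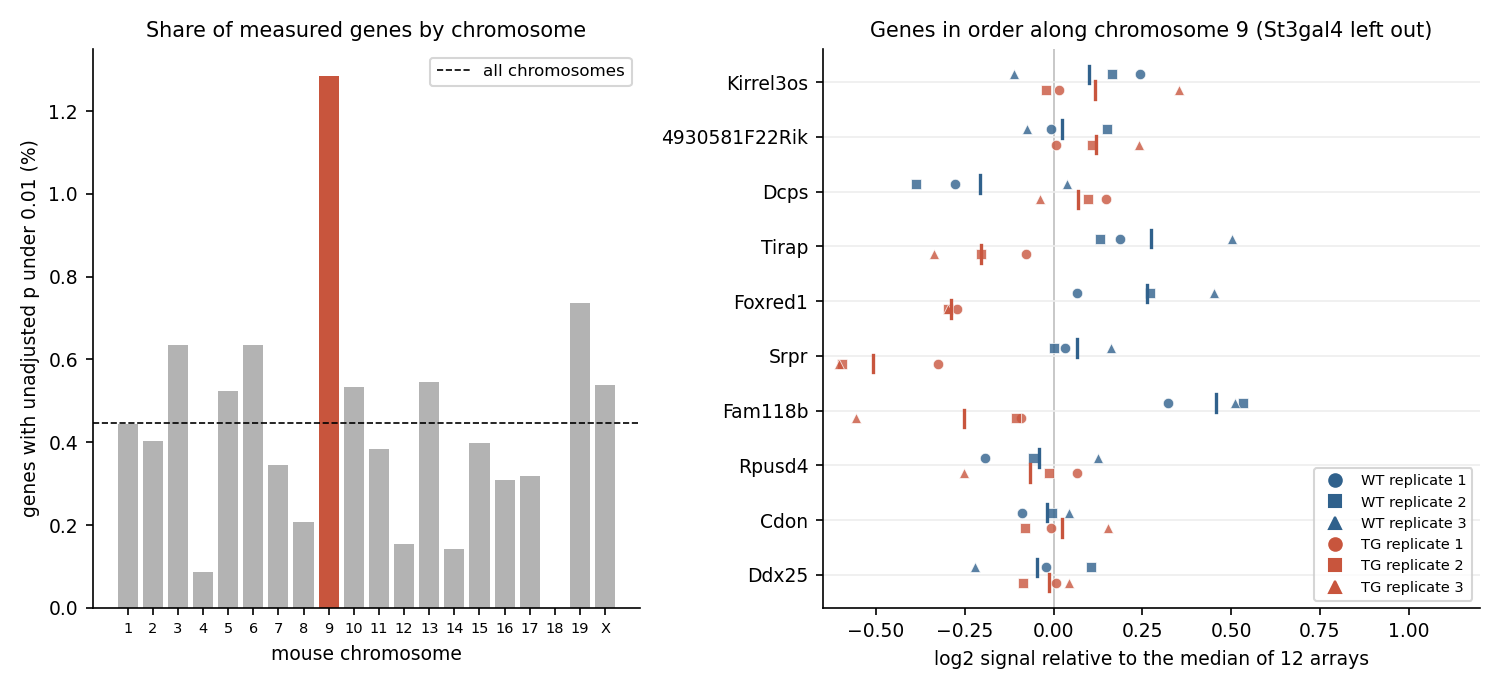
Left, share of the measured genes of each autosome and chromosome X with an unadjusted p under 0.01 on water, with the dashed line for all chromosomes and chromosome 9 in red at 1.29%. Right, values on the 6 water arrays (log2, relative to the median of 12 arrays) of 10 neighbouring genes in their order on chromosome 9 (St3gal4, which lies among them, is left out for scale), where Tirap, Foxred1, Srpr and Fam118b are lower on every TG array.

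The 6 DSS arrays share no array with the comparison on water, so the same genes can be read there. Under DSS, too, no gene differed between TG and WT at an adjusted p under 0.05 (limma, 0 of 19935, 0%), and 1879 did at an unadjusted p under 0.05 (9.43%). At water 346 genes had an unadjusted p under 0.05 with groups that did not overlap (1.74%), and 294 of these (85.0%) had the same sign under DSS, against 54.9% of all genes. Only 28 of the 346 (8.09%) had an unadjusted p under 0.05 under DSS, against 9.43% of all genes. The groups did not overlap under DSS for 38 of the 346 and for 3778 of all 19935 genes. Of the 300 that were lower on water 271 were lower under DSS, while of the 46 that were higher 23 were higher. WT DSS replicate 2 stood apart, with 3795 probe sets more than 1 log2 unit from the median against 53 to 1035 on the other 5 DSS arrays. Without it, a choice made after its values had been seen, 250 of the 346 (72.3%) had the same sign, against 52.3% of all genes.

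The lists of enteric neurons and smooth muscle are given side by side for the DSS arrays. Over all genes 8401 of 19935 were lower in TG under DSS, and 9.43% had an unadjusted p under 0.05. In the enteric neuron and glia list 27 of 29 genes were lower in TG under DSS. Of these 29, 12 (41.4%) had an unadjusted p under 0.05, of which 11 were lower and 1 was higher. Without WT DSS replicate 2, 26 were lower and 7 (24.1%) had an unadjusted p under 0.05, against 10.1% of all genes. Gal stood at -1.89 under DSS and at -1.79 without that array. Vip stood at -1.27 and -0.64, and Prph at -1.01 and -0.72. In the smooth muscle list 25 of 27 were lower under DSS, but 10 without WT DSS replicate 2, and the 1 gene with an unadjusted p under 0.05, Casq2, was higher at 0.64.

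Of the 15 chromosome 9 genes with an unadjusted p under 0.01 on water, 11 had the same sign under DSS and 4 the opposite sign, namely Rbp2, Bckdhb, Gsta4 and Fam118b. Rbp2 stood at 0.96, Bckdhb at 0.87 and Gsta4 at 0.54 in TG minus WT, where Rbp2 read 0.31, -1.31 and -1.37 in WT and 0.53, -0.21 and 0.19 in TG. Fam118b stood at 0.21. Without WT DSS replicate 2 Rbp2 stood at 0.70 and Bckdhb at 0.97, while Gsta4 at -0.24 and Fam118b at -0.03 no longer had the opposite sign. For Tirap, Foxred1, Srpr and Fam118b alike, TG DSS replicate 2 was the highest TG DSS array, at 0.50, 0.35, 0.21 and 0.55, whereas TG DSS replicates 1 and 3 lay between -0.52 and -0.03. The test of the difference between the genotype effects on water and under DSS passed for 0 genes (limma interaction, 1167 at an unadjusted p under 0.05), and its lowest adjusted p among the genes named here was 0.797.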

How the data were processed

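Colon epithelial RNA (the labelled source) of TG and WT mice on water was measured on 3 Affymetrix mouse gene arrays per group. Per the submitters' processing notes, Affymetrix Expression Console with RMA produced the deposited values, and no version is stated. No source names the log base, and log2, which RMA returns, was assumed for the authors' values. Across the 12 arrays the deposited probe set medians are 0 to within 5e-07, which shows that each probe set was centred. Depth does not apply to arrays, and their small number limits the precision.

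Of 28815 probe sets, 21780 had 1 gene symbol, 1605 several and 5430 none, and the 7035 without a single symbol were left out. 21689 matched the RefSeq annotation of GRCm38.p6 by gene identifier, and promoter sequences are from RefSeq. Probe sets of a gene were averaged and no filter on dim probe sets was possible. The 6 water arrays were fitted alone in R 4.3.3 with limma 3.58.1, using lmFit and eBayes (4 residual degrees of freedom, two-sided). P-values were adjusted by Benjamini-Hochberg over 19935 genes, with 0.05 as the threshold for passing. An exact permutation test of 3 against 3 arrays cannot go below 0.1, so none was used. On simulated data of this comparison the script recovered 76.1%, 95.5% and 100% of genes changed by 1, 2 and 4 log2 units. It made 10 false calls among the unchanged genes of the 19935. The noise was drawn independently for each gene and array, which real arrays need not follow, so these rates do not measure power here.

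The 37 gene lists (882 entries, 822 measured) and the genes compared were chosen with earlier results of these data known. Named were Cldn2, the 5 genes with the smallest p, the 12 largest differences in each direction among genes with an unadjusted p under 0.05 and no overlap, and up to 3 genes of each list, without non-descriptive symbols. Alternatives were a fit of all 12 arrays, a replicate block, single probe sets, array centring, robust eBayes, weights per array, other thresholds and the omission of each array. Python 3.11.15 made the tables and plots, through numpy 2.4.6, pandas 2.3.3 and matplotlib 3.10.9.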

Additional observations from a re-analysis of the deposited data

Results flagged for a closer look

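Aurkb was set aside because every TG array was below every WT array on water and every TG array was above every WT array under DSS. The difference between the 2 genotype effects, DSS minus water, was 1.63 on the log2 scale. Tested over all genes it did not pass (limma interaction, adjusted p = 0.797). Under DSS Aurkb read -0.33, -1.38 and -2.15 in WT and 0.19, 0.14 and 0.01 in TG. The pair of directions was not particular to Aurkb. Of 33 measured cell cycle genes 23 were lower in TG on water and 1 under DSS, where the list's median difference was 0.78. Over all genes 3.05% lay lower in TG without overlap on water. Under DSS the groups did not overlap, in either direction, for 3778 of 19935.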

How the results depend on the processing

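No gene passed on water in the limma fits with a replicate block, array centring, robust eBayes, all 12 arrays, genes with a single probe set, each array left out (0 to 0), an adjusted p under 0.01 or 0.1, or at least 1.5-fold. With every probe set on its own 1 passed, and with weights per array 667 passed. With those weights 5364 genes had an unadjusted p under 0.05, among them 22 fibroblast, 24 smooth muscle and 22 enteric neuron genes, Rbp2 passed at -1.31 (limma adjusted p = 0.00148) and 65 of the 99 named genes passed. The weights were 4.77 for WT replicate 1 and 3.41 for TG replicate 2 and between 0.24 and 1.30 for the other 4 arrays. In the fit of all 12 arrays, whose spread includes the DSS arrays, 61 genes had an unadjusted p under 0.05, with 0 in each of the 3 lists. Whether the replicate numbers pair the arrays is not known here. The deviations of same-numbered arrays from their group means correlated at -0.22, -0.08 and -0.48. Deviations from a mean of 3 arrays are tied to each other, so these values cannot decide it. With the replicate block 360 genes had an unadjusted p under 0.05, 0 passed and the smooth muscle count was 18. Rbp2 kept its difference of -1.42 with that block, but its limma adjusted p was 0.9999. In the fit of all 12 arrays Rbp2 was likewise far from passing. With single arrays left out, the count at an unadjusted p under 0.05 lay between 179 (without TG replicate 2) and 1020 (without TG replicate 3), and it lay between 2 and 18 for fibroblast, 2 and 22 for smooth muscle and 8 and 12 for enteric neuron genes. The causes were not tested. No named gene changed sign in the 12 alternatives run for each. That outcome was largely fixed, because the 12-array, replicate block and robust fits leave the difference itself unchanged. Where the groups did not overlap, leaving out or weighting an array cannot reverse the sign either. A further quantile normalization was planned and not run, since the values hold no absolute level.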

Other observations

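A few genes stood more than 1.5 log2 units apart on 1 water array, namely 7 on TG replicate 2, 6 on WT replicate 1 and 4 on WT replicate 2, and they were named after their values had been seen. On WT replicate 1 the MHC gene H2-Ea read -3.62, beside -0.51 to 1.19 on the other 5 water arrays, and H2-Ea also read -3.70 on WT DSS replicate 3. The MHC class I genes H2-Q4 and H2-Q2 read -1.52 and 1.51 on WT replicate 1, with the other 5 water arrays between -0.28 and 0.31. St3gal4, a sialyltransferase gene that lies near Tirap on chromosome 9, read -3.93 on WT replicate 1, beside -0.12 to 0.60 on the other 5. On the same array Cbr3, a carbonyl reductase gene, read -1.91. AI506816 had the largest difference of all genes with an unadjusted p under 0.05, at 2.75 ± 0.97, and it read -5.01, -2.36 and -0.42 in WT and 0.00, 0.32 and 0.15 in TG. Clca4b, a chloride channel regulator gene, read 0.28 on WT replicate 2 and between -2.57 and -1.31 on the other 5 water arrays. Mir200b, the gene of an epithelial microRNA, read 2.24 on TG replicate 2.

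The male accessory gland genes were not particular to the water arrays. Pbsn read 1.86 and 4.27 and Tgm4 read 1.53 and 3.82 on TG DSS replicates 1 and 3, and Svs5 read 3.92 on WT DSS replicate 2.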
